A study of Mus musculus with 18 samples.

Results

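The 32 genes described here are expressed by endothelial cells, the cells that line blood vessels, and were picked by symbol as markers of the vessels of the choroid. All 32 were present among the 52636 gene rows of the deposited count table. They were followed in RNA from retinal pigment epithelium (RPE) preparations of 18 C57BL/6 mice at postnatal day 14, with 3 mice in each of 6 groups. The uninjected mice received no virus. The other mice were injected under the retina at birth (P0) with AAV8 vectors whose *Best1* promoter drives expression in the RPE, not in vessels. These vectors carried GFP, nSREBP2 (the N-terminal, constitutively active part of the transcription factor SREBP2), a control hairpin against LacZ (ctrl sh), or one of a pair of hairpins against *Lrp2* (*Lrp2* sh1 and *Lrp2* sh2). The study compared nSREBP2 versus GFP and each *Lrp2* hairpin versus ctrl sh, to find what overexpression of nSREBP2 and loss of *Lrp2* share when the eye enlarges. No allele was deleted in any group. Both eyes of a mouse were pooled, and the RPE was loosened from the sclera with papain after removal of the retina, and whether choroid came along is not stated in the methods.

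The choroid is the vascular layer behind the RPE, and its inner capillary sheet, the choriocapillaris, feeds the photoreceptors through pores, or fenestrae, in its endothelium. The RPE secretes VEGF towards these capillaries, and VEGF receptors on the endothelium maintain the vessels and their fenestrae. PLVAP is the protein that forms the diaphragms across the fenestrae, whereas most other genes of the set, such as *Pecam1*, *Cdh5* and *Vwf*, mark endothelium of many kinds.

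Endothelial promoters are known for binding ETS factors such as ERG, whose core motif is GGAA. For *Flt1* and *Kdr*, which encode receptors for VEGF, and *Cldn5*, which encodes the tight junction protein of endothelium, the 120 bases before the transcription start are shown because these genes were among those that fell most with nSREBP2, *Lrp2* sh2 or both. The sequences are from RefSeq on build GRCm38.p6, written 5′ to 3′ on the strand of the gene, with GGAA, searched on both strands, in capitals. *Flt1* lies at chr5:147726012-147726131 on the minus strand, *Cldn5* at chr16:18776727-18776846 on the plus strand and *Kdr* at chr5:75978459-75978578 on the minus strand.
Flt1: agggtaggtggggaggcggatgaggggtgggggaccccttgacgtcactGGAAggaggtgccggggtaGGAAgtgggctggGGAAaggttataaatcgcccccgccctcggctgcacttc
Cldn5: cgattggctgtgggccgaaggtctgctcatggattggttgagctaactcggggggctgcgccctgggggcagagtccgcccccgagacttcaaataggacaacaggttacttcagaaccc
Kdr: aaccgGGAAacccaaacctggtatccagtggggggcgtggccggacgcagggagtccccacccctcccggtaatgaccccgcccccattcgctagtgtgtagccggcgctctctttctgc
The printed window of *Flt1* held 3 such matches, that of *Kdr* 1 and that of *Cldn5* 0. Of the 13 genes of the set with 1 RefSeq start, 12 (92.3%) held GGAA on either strand in the 250 bases before the start, against 93.4% of 32851 windows of all genes. The longer ETS motif CGGAA, which contains the shorter one, was on either strand in 3 of the 13 (23.1%) against 25.2% of all windows. The core motif of SOX factors, ACAAT, was on either strand in 7 of the 13 (53.8%) against 27.7% of all windows.

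Endothelial RNA was abundant in every preparation. Total counts per library ran from 8921885 to 13696934, and the 32 genes together took 0.409% to 0.737% of them. Levels are given as CPM, counts scaled to library size with TMM factors, and 3 counts, the upper limit that a count of 0 allows, correspond to 0.218 to 0.323 CPM. Each of 31 genes was far above this limit in every library. *Car4* was near it, with 2 to 41 counts per library. Per kilobase of exon, which allows comparison between genes, *Plvap* had the highest mean level in the uninjected mice (170.5 CPM per kb), followed by *Cldn5* (97.6 CPM per kb) and *Podxl* (84.1 CPM per kb). *Pecam1* stood at 30.2 CPM per kb and *Car4*, which encodes a carbonic anhydrase found on the choriocapillaris, was lowest at 0.227 CPM per kb. The marker of fenestrae was thus abundant, while the marker carbonic anhydrase was close to the limit of detection.

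The summed level of the 32 genes had medians of 6897 CPM in the uninjected mice, 5693 CPM with GFP and 6001 CPM with ctrl sh. The medians were 4787 CPM with nSREBP2, 5830 CPM with *Lrp2* sh1 and 4223 CPM with *Lrp2* sh2. Every nSREBP2 library (4678 to 5036 CPM) was below every GFP library (5647 to 7149 CPM), and every *Lrp2* sh2 library (4158 to 4548 CPM) was below every ctrl sh library (5981 to 6236 CPM). The *Lrp2* sh1 libraries (5530 to 5959 CPM) were also below all ctrl sh libraries, by a small margin. GFP replicate 3 stood apart at 7149 CPM, and was the highest GFP library for 31 of the 32 genes. In bulk RNA, fewer endothelial cells and less RNA per cell cannot be told apart.

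**Figure D1:**
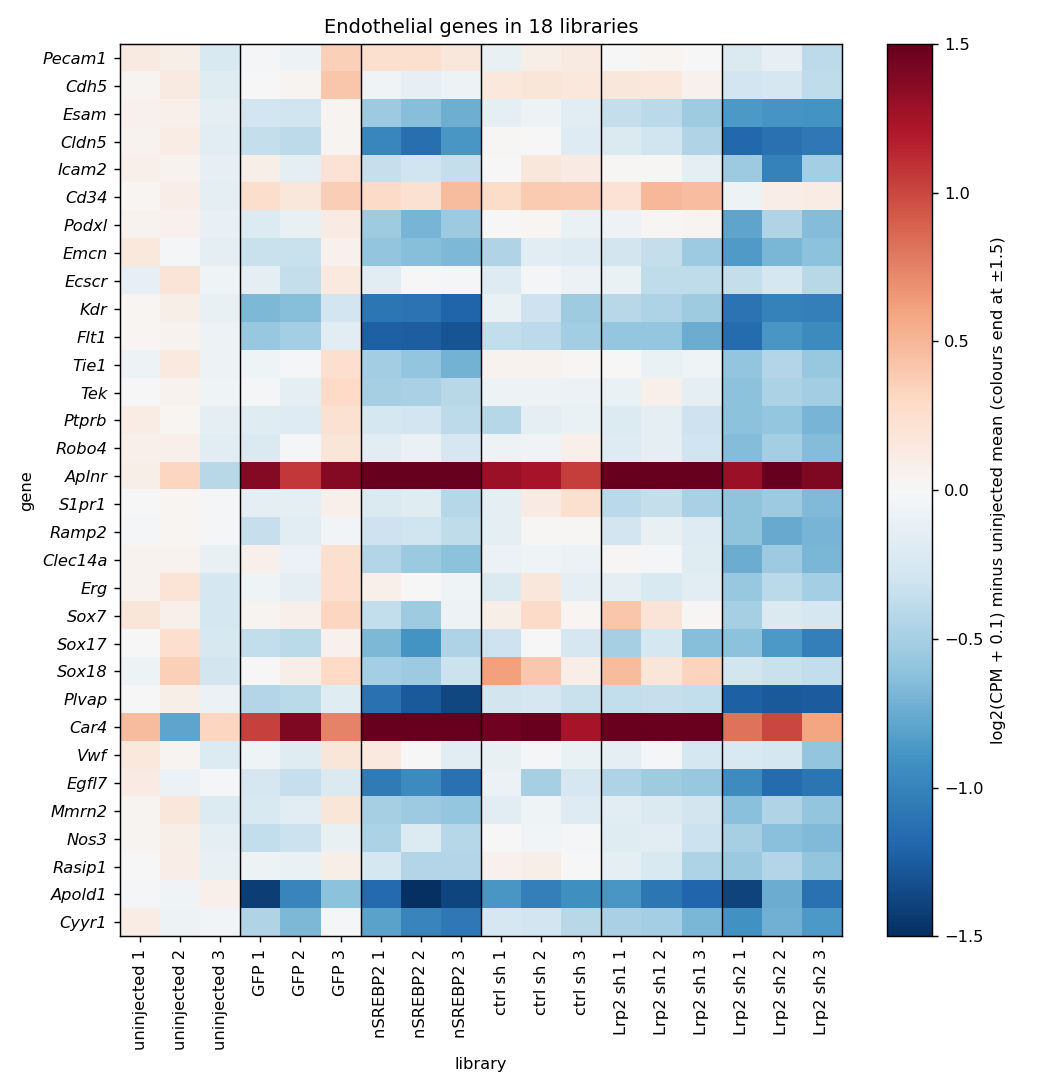
Level of each of the 32 endothelial genes (rows) in each of the 18 libraries (columns), as log2(CPM + 0.1) minus the mean of the 3 uninjected libraries. Blue is lower and red is higher; the nSREBP2 and *Lrp2* sh2 columns are blue for most genes, and *Aplnr* and *Car4* are the most strongly red rows.

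A test across all 6 groups (edgeR quasi-likelihood F test, 18 libraries) called 30 of the 32 genes at adjusted *P* under 0.05, against 48.7% of the 19744 genes tested. *Vwf* (adjusted *P* = 0.0903) and *Ecscr* (adjusted *P* = 0.179) were not called. In nSREBP2 versus GFP, edgeR called 17 of the 32 genes lower and 2 higher, against 8.47% lower and 12.6% higher among the 17927 genes tested (21% in all). In *Lrp2* sh1 versus ctrl sh it called 2 lower and 1 higher, against 2.28% lower and 3.06% higher (5.33% in all). These 3 calls were lost without ctrl sh replicate 3, and likewise without *Lrp2* sh1 replicate 2 or 3, each of which left 0. In *Lrp2* sh2 versus ctrl sh it called 26 lower and 0 higher, against 9.48% lower and 8.59% higher (18.1% in all). At an unadjusted *P* under 0.05, 30 genes passed, of which *Aplnr* alone was higher, but the share of all genes at that threshold was not counted. DESeq2 called 28 lower and 0 higher, against 14% of all genes called. Every nSREBP2 library was below every GFP library for 21 of the 32 genes and above for 2, as for 17.8% and 19.7% of all genes, and *Lrp2* sh2 was below ctrl sh for 30 and above for 1, as for 19.6% and 17.2%. Without GFP replicate 3, nSREBP2 called 14 lower and 3 higher, against 22.2% of all genes called, with a median log2FC of -0.29. The median log2FC of the 32 genes was -0.43 with nSREBP2, -0.11 with *Lrp2* sh1 and -0.56 in mice given *Lrp2* sh2, while the medians over all genes tested were -0.02, -0.01 and 0.01. Most of the falls were moderate. *Car4*, which rose with nSREBP2, and *Cldn5*, which fell with *Lrp2* sh2, were alone in also passing an absolute log2FC of 1. The shares of all genes that passed were 6.67% and 4.76%. With *Lrp2* sh1, 0 genes of the set passed, against 0.994% of all genes.

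**Figure D2:**
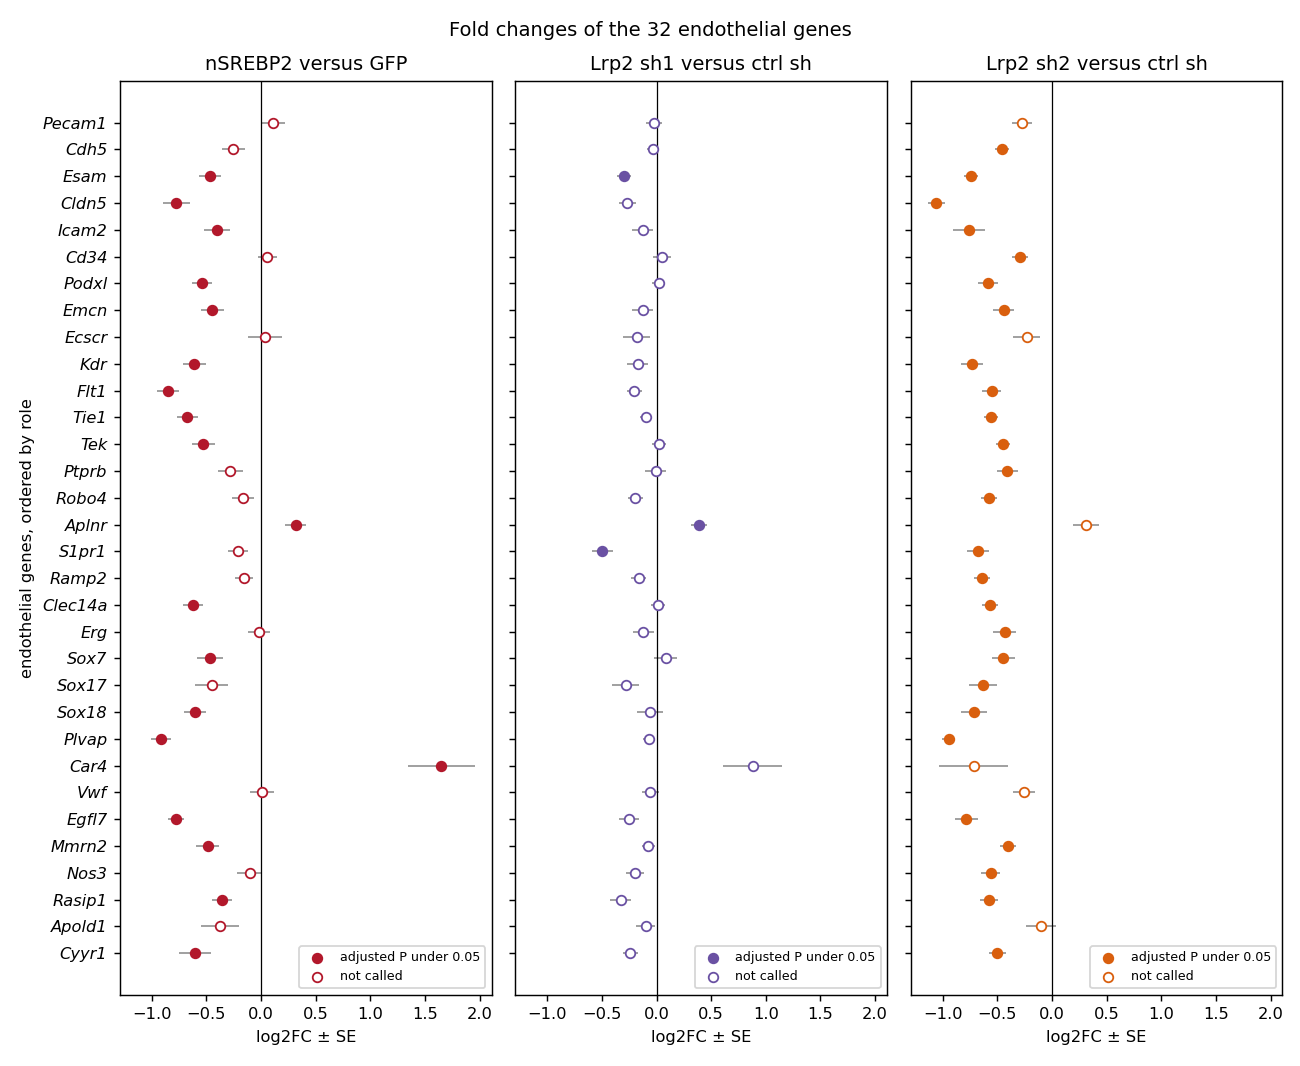
log2FC with its SE for the 32 endothelial genes in the 3 comparisons of the study, ordered by role from junction genes at the top. Filled points passed an adjusted *P* of 0.05: 19 with nSREBP2, 26 with *Lrp2* sh2 and 3 with *Lrp2* sh1.

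*Plvap* fell by nearly the same amount with nSREBP2 and with *Lrp2* sh2. Its level was 338, 359 and 319 CPM in the uninjected mice, 250, 256 and 298 CPM with GFP and 280, 283 and 268 CPM with ctrl sh. With nSREBP2 it was 156, 141 and 131 CPM, with *Lrp2* sh2 145, 141 and 142 CPM, and with *Lrp2* sh1 262, 266 and 262 CPM. All 6 libraries of nSREBP2 and *Lrp2* sh2 lay far below the other 12. The log2FC was -0.92 ± 0.09 (SE) with nSREBP2 (edgeR adjusted *P* = 0.000122) and -0.95 ± 0.06 with *Lrp2* sh2 (adjusted *P* = 3.55e-05). With *Lrp2* sh1 it was -0.07 ± 0.05 (adjusted *P* = 0.529), although those 3 libraries were just below the ctrl sh libraries.

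*Car4*, the other gene tied to the choriocapillaris, went against *Plvap* with nSREBP2 but not with *Lrp2* sh2. It was at 0.605, 0.194 and 0.539 CPM in the uninjected mice, 0.934, 1.24 and 0.750 CPM with GFP and 1.31, 1.56 and 1.10 CPM with ctrl sh. With nSREBP2 it reached 3.86, 2.61 and 2.74 CPM, with *Lrp2* sh1 1.98, 2.40 and 2.98 CPM, and with *Lrp2* sh2 it was 0.799, 0.922 and 0.670 CPM. The nSREBP2 libraries were above all GFP libraries and the *Lrp2* sh2 libraries below all ctrl sh libraries, at counts of only 8 to 41 in these 12 libraries. *Car4* rose with nSREBP2 (log2FC 1.65 ± 0.31, edgeR adjusted *P* = 0.00425), and this call was lost with sex as a term (adjusted *P* = 0.0944). With *Lrp2* sh2 its log2FC was -0.71 ± 0.32 (adjusted *P* = 0.153) and with *Lrp2* sh1 0.88 ± 0.27 (adjusted *P* = 0.0981).

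Among the 9 junction and adhesion genes, 5 fell with nSREBP2 and 7 with *Lrp2* sh2, and *Cldn5* fell most in both. *Cldn5* was at 107, 105 and 142 CPM with GFP and 70.0, 62.7 and 75.3 CPM with nSREBP2 (log2FC -0.78 ± 0.12, edgeR adjusted *P* = 0.00173). It was at 140, 139 and 120 CPM with ctrl sh and 60.9, 63.5 and 65.4 CPM with *Lrp2* sh2 (log2FC -1.06 ± 0.08, adjusted *P* = 6.33e-05). The *Lrp2* sh1 libraries, at 118, 112 and 101 CPM, lay between (log2FC -0.27, adjusted *P* = 0.0874), and the uninjected libraries were at 143, 149 and 123 CPM. *Esam*, an adhesion molecule of endothelial tight junctions, was at 106, 111 and 104 CPM with ctrl sh, and at 91.5, 88.5 and 80.7 CPM with *Lrp2* sh1. With *Lrp2* sh2 it was at 64.5, 63.2 and 63.0 CPM. With both hairpins *Esam* was below every ctrl sh library, and it fell with sh1 (log2FC -0.30, edgeR adjusted *P* = 0.0271) and with sh2 (log2FC -0.74, adjusted *P* = 0.000125). The call with sh1 was lost in 5 of the 6 fits without 1 library. It was also lost with all 18 libraries in 1 fit, with the replicate block and with sex as a term. With nSREBP2 *Esam* was at 80.4, 75.1 and 70.6 CPM against 96.3, 95.5 and 120 CPM with GFP (log2FC -0.47, adjusted *P* = 0.00886), and the uninjected libraries were at 122, 124 and 106 CPM.

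The general endothelial genes *Pecam1* and *Cdh5* moved less than *Cldn5* and *Esam*. *Pecam1*, which encodes the CD31 protein of endothelial contacts, was at 184, 178 and 240 CPM with GFP and 221, 222 and 210 CPM with nSREBP2 (log2FC 0.11 ± 0.11, edgeR adjusted *P* = 0.536). It was at 173, 199 and 205 CPM with ctrl sh, 188, 192 and 188 CPM with *Lrp2* sh1 and 161, 171 and 142 CPM with *Lrp2* sh2, where all 3 libraries were below ctrl sh without a call (log2FC -0.27 ± 0.09, adjusted *P* = 0.0718). The uninjected libraries, at 206, 199 and 160 CPM, overlapped every group but nSREBP2. Without GFP replicate 3, *Pecam1* was called higher with nSREBP2 (log2FC 0.27, edgeR adjusted *P* = 0.0191). *Cdh5*, which encodes VE-cadherin of the adherens junctions, was at 332, 339 and 441 CPM with GFP and 319, 303 and 313 CPM with nSREBP2; these groups did not overlap, but the difference was not called (log2FC -0.26 ± 0.11, adjusted *P* = 0.121). *Cdh5* fell with *Lrp2* sh2, to 270, 277 and 255 CPM from 368, 375 and 369 CPM with ctrl sh (log2FC -0.46 ± 0.06, edgeR adjusted *P* = 0.00132). It was at 372, 369 and 345 CPM with *Lrp2* sh1, within or near the ctrl sh range, and at 341, 364 and 292 CPM in the uninjected mice. Of the other junction and adhesion genes, *Podxl* and *Emcn*, which encode surface sialomucins, and *Icam2* fell with both nSREBP2 (log2FC -0.54, -0.45 and -0.40) and *Lrp2* sh2 (log2FC -0.59, -0.44 and -0.76). The call on *Icam2* with nSREBP2 was lost in 5 of the 6 fits without 1 library, with DESeq2, with the replicate block and with sex as a term. *Cd34* fell only with *Lrp2* sh2 (log2FC -0.29, against 0.06 with nSREBP2, a difference of 0.36 that was not called). That call on *Cd34* was lost in 3 of the 6 fits without 1 library and with sex as a term. *Ecscr*, at 8.87 to 13.5 CPM in the 18 libraries, was called in none of these comparisons.

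**Figure D3:**
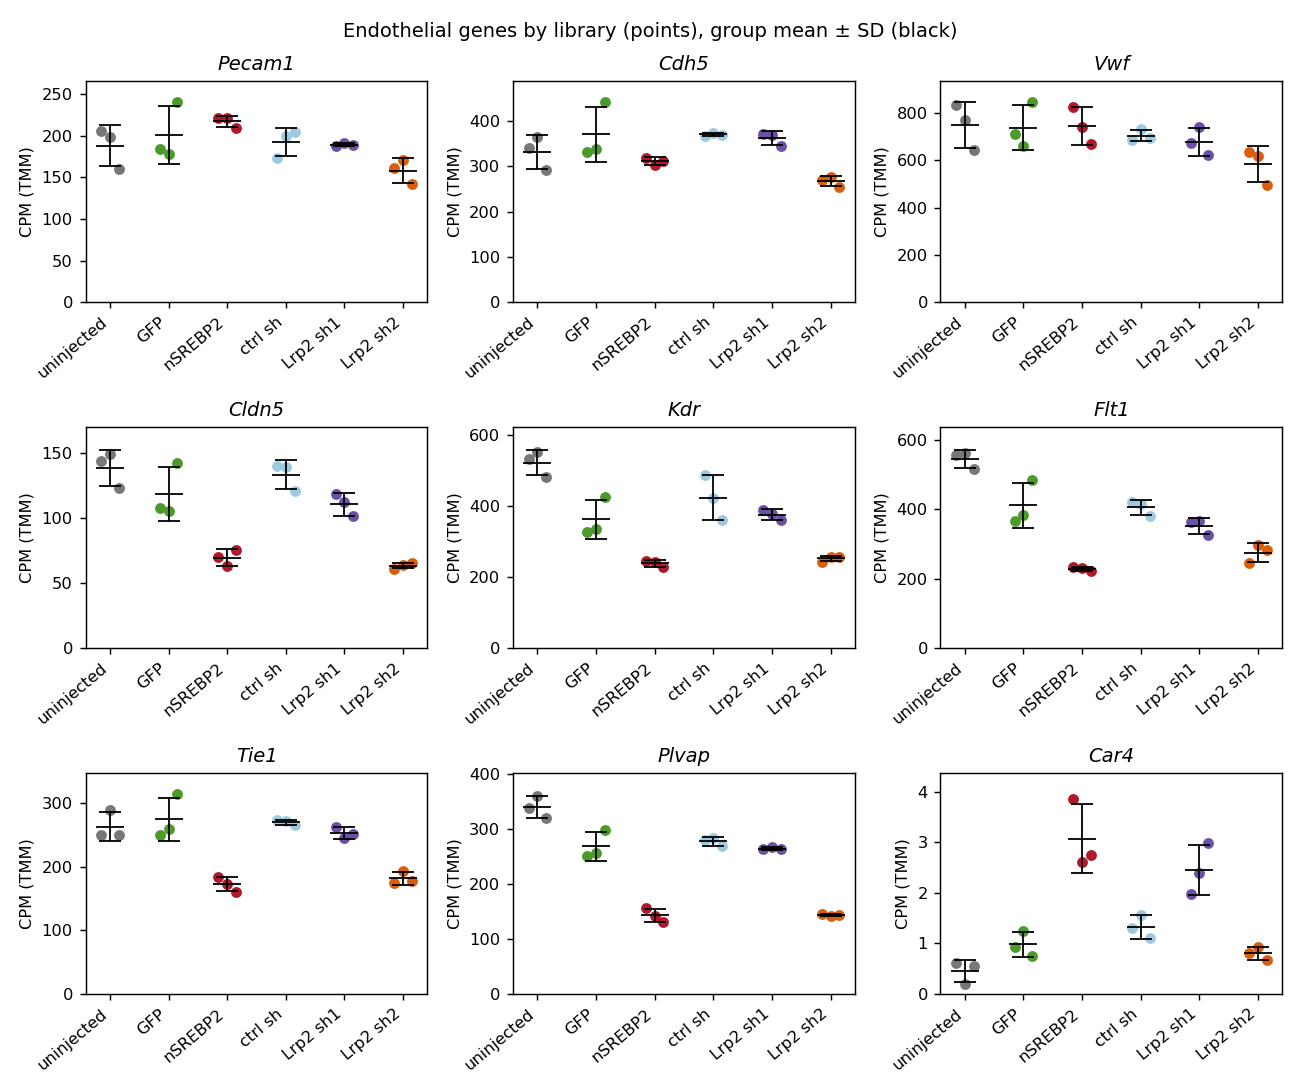
CPM (TMM) of 9 endothelial genes in each library (coloured points, 3 mice per group), with group means and SDs in black. *Cldn5*, *Kdr*, *Flt1*, *Tie1* and *Plvap* were lower in all nSREBP2 libraries than in all GFP libraries. They were also lower in all *Lrp2* sh2 libraries than in all ctrl sh libraries. *Pecam1* and *Vwf* overlapped between nSREBP2 and GFP. *Car4* was higher in all nSREBP2 libraries than in all GFP libraries, but lower in all *Lrp2* sh2 libraries than in all ctrl sh libraries.

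Of the 10 receptor genes, 5 fell and 1 rose with nSREBP2, and 9 fell with *Lrp2* sh2. *Kdr*, which encodes the main signaling receptor for VEGF, was at 532, 551 and 481 CPM in the uninjected mice. It was at 325, 335 and 426 CPM with GFP and at 245, 241 and 227 CPM with nSREBP2. With ctrl sh it was at 487, 420 and 361 CPM, with *Lrp2* sh1 at 389, 378 and 359 CPM and with *Lrp2* sh2 at 243, 257 and 256 CPM. Both treated groups were below all of their controls, and the GFP libraries were in turn below the uninjected libraries. *Kdr* fell with nSREBP2 (log2FC -0.61 ± 0.10, edgeR adjusted *P* = 0.0026) and with *Lrp2* sh2 (log2FC -0.74 ± 0.10, adjusted *P* = 0.00123).

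*Flt1*, which encodes a VEGF receptor that also acts as a trap for the ligand, showed the largest fall with nSREBP2 among the receptor genes. It was at 557, 564 and 516 CPM in the uninjected mice, 366, 383 and 484 CPM with GFP, and 233, 231 and 223 CPM with nSREBP2 (log2FC -0.85 ± 0.10, edgeR adjusted *P* = 0.000401). It was at 421, 414 and 381 CPM with ctrl sh, 364, 365 and 326 CPM with *Lrp2* sh1 and 244, 298 and 281 CPM with *Lrp2* sh2 (log2FC -0.55 ± 0.09, adjusted *P* = 0.00236). The 6 groups were therefore ordered as uninjected, then GFP and ctrl sh, which overlapped, then *Lrp2* sh1, *Lrp2* sh2 and nSREBP2. Of these steps, uninjected to ctrl sh and *Lrp2* sh1 to *Lrp2* sh2 (log2FC -0.35, edgeR adjusted *P* = 0.0115) were called. Those from uninjected to GFP (log2FC -0.43, edgeR adjusted *P* = 0.103) and from ctrl sh to *Lrp2* sh1 (log2FC -0.20, adjusted *P* = 0.127) were not, and *Lrp2* sh2 and nSREBP2 were not compared directly.

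The angiopoietin receptor genes fell as well. *Tie1* was at 251, 260 and 314 CPM with GFP and 183, 174 and 161 CPM with nSREBP2 (log2FC -0.67 ± 0.09, edgeR adjusted *P* = 0.000929). It was at 273, 272 and 265 CPM with ctrl sh, 263, 245 and 252 CPM with *Lrp2* sh1 and 174, 194 and 178 CPM with *Lrp2* sh2 (log2FC -0.56 ± 0.07, adjusted *P* = 0.000593). The uninjected libraries (250, 290 and 250 CPM) overlapped the GFP and ctrl sh libraries. *Tek*, which encodes the angiopoietin receptor TIE2, fell by 0.53 on the log2 scale with nSREBP2 and by 0.45 with *Lrp2* sh2, and *Clec14a* fell by 0.62 and 0.57. The phosphatase gene *Ptprb*, whose product acts on TIE2, fell with *Lrp2* sh2 (log2FC -0.41, edgeR adjusted *P* = 0.0198) and had a log2FC of -0.28 with nSREBP2 (adjusted *P* = 0.113). Its call with *Lrp2* sh2 was lost in 3 of the 6 fits without 1 library and with sex as a term.

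*S1pr1*, which encodes a sphingosine-1-phosphate receptor, was one of the few genes that fell with both hairpins. It was at 75.0, 90.2 and 98.1 CPM with ctrl sh, 62.8, 64.6 and 59.1 CPM with *Lrp2* sh1 and 54.5, 57.0 and 52.2 CPM with *Lrp2* sh2. Both hairpin groups were below every ctrl sh library (log2FC -0.50, edgeR adjusted *P* = 0.0187, and log2FC -0.67, adjusted *P* = 0.00202). Both comparisons used the same ctrl sh libraries, and the call with sh1 was lost in 5 of the 6 fits without 1 library. *S1pr1* was at 74.8, 75.3 and 87.5 CPM with GFP and 71.2, 72.9 and 62.0 CPM with nSREBP2, groups that did not overlap but were not called apart (log2FC -0.21, adjusted *P* = 0.141), and at 82.7, 85.0 and 81.5 CPM in the uninjected mice. *Robo4* and *Ramp2*, the latter a partner of the adrenomedullin receptor, fell with *Lrp2* sh2 (log2FC -0.58 and -0.64), and had log2FCs of -0.17 and -0.16 with nSREBP2.

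*Aplnr*, which encodes the apelin receptor of venous and sprouting endothelium, went the other way. It was at 40.7, 47.8 and 28.7 CPM in the uninjected mice, and at 78.4 to 128 CPM in all 15 injected mice. The levels were 99.1, 79.8 and 99.3 CPM with GFP, 119, 110 and 118 CPM with nSREBP2, and 93.8, 90.3 and 78.4 CPM with ctrl sh. They were 109, 115 and 120 CPM with *Lrp2* sh1 and 94.2, 128 and 101 CPM with *Lrp2* sh2. No injected library was within the uninjected range, and *Aplnr* rose with GFP versus uninjected (log2FC 1.23 ± 0.17, edgeR adjusted *P* = 0.0118) and with ctrl sh versus uninjected (log2FC 1.14 ± 0.16, adjusted *P* = 0.00922). It rose further with nSREBP2 (log2FC 0.32, adjusted *P* = 0.0373) and *Lrp2* sh1 (log2FC 0.39, adjusted *P* = 0.017), calls that 5 and 3 of the 6 fits without 1 library lost, and its log2FC with *Lrp2* sh2 was 0.31 (adjusted *P* = 0.104).

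The 4 transcription factor genes all fell with *Lrp2* sh2. These were *Erg*, an ETS factor that maintains endothelial identity (log2FC -0.43), and the SOX factors of vascular development *Sox7* (log2FC -0.44), *Sox17* (log2FC -0.63) and *Sox18* (log2FC -0.71). With sex as a term, the calls on *Erg*, *Sox7* and *Sox17* were lost (edgeR adjusted *P* = 0.15, 0.149 and 0.13). Those on *Erg* and *Sox7* were also lost in 2 and 1 of the 6 fits without 1 library. With uninjected mice as the control, those on *Sox7* and *Sox18* were lost. With nSREBP2, *Sox7* (log2FC -0.47) and *Sox18* (log2FC -0.60) fell, the call on *Sox7* being lost in 4 of the 6 fits without 1 library. *Sox17*, with a log2FC of -0.45, was not called (edgeR adjusted *P* = 0.0593), and *Erg* had a log2FC of -0.02 (adjusted *P* = 0.932). A share of 16.8% of the exonic bases of *Sox17* overlaps another gene.

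Of the 3 genes for secreted factors and matrix, *Egfl7* and *Mmrn2* fell in both comparisons and *Vwf* in neither. *Egfl7*, which encodes a matrix protein that guides vessel tubes, was at 140, 131 and 144 CPM with GFP and 80.3, 86.1 and 76.8 CPM with nSREBP2 (log2FC -0.78 ± 0.07, edgeR adjusted *P* = 1e-04). It was at 157, 118 and 141 CPM with ctrl sh, 121, 116 and 113 CPM with *Lrp2* sh1 and 86.7, 75.4 and 77.9 CPM with *Lrp2* sh2 (log2FC -0.78 ± 0.10, adjusted *P* = 0.000986). The uninjected libraries were highest, at 182, 157 and 164 CPM. *Vwf*, which encodes von Willebrand factor of larger vessels, was at 711, 660 and 845 CPM with GFP and 828, 742 and 668 CPM with nSREBP2 (log2FC 0.01 ± 0.11, adjusted *P* = 0.964). It was at 688, 732 and 694 CPM with ctrl sh, 672, 740 and 621 CPM with *Lrp2* sh1 and 635, 621 and 495 CPM with *Lrp2* sh2 (log2FC -0.26 ± 0.10, adjusted *P* = 0.107). The *Lrp2* sh2 libraries were below all their controls, the other groups overlapped theirs, and the uninjected libraries were at 836, 769 and 646 CPM. *Mmrn2* had log2FCs of -0.49 and -0.40.

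Of the 4 genes for signaling and other roles, *Rasip1* and *Cyyr1* fell with nSREBP2 (log2FC -0.36 and -0.60) and with *Lrp2* sh2 (log2FC -0.58 and -0.50). Their calls with nSREBP2 were lost in 3 and 2 of the 6 fits without 1 library. The call on *Rasip1* with nSREBP2 was also lost with DESeq2 and with sex as a term. *Nos3*, which encodes endothelial nitric oxide synthase, fell with *Lrp2* sh2 (log2FC -0.56) and had a log2FC of -0.10 with nSREBP2. *Rasip1* and *Nos3* share 42.9% and 32.3% of their exonic bases with another gene, *Ramp2* 33.4% and *Egfl7* 12.8%. Reads in these bases may not be assigned to 1 gene with certainty. For *Nos3* the overlap was all on the opposite strand, and the strand setting of the counts is not given. *Apold1*, an immediate early gene of endothelium, separated the uninjected mice from all others: it was at 136, 133 and 146 CPM there and at 49.0 to 90.04 CPM in the 15 injected mice. It fell in GFP (51.9, 69.6 and 90.04 CPM; log2FC -0.99 ± 0.17, edgeR adjusted *P* = 0.0209) and in ctrl sh (75.2, 67.8 and 72.8 CPM; log2FC -0.97 ± 0.08, adjusted *P* = 0.00145). It was at 61.6, 49.0 and 53.2 CPM with nSREBP2, 75.6, 65.0 and 60.5 CPM with *Lrp2* sh1 and 53.0, 82.7 and 63.6 CPM with *Lrp2* sh2, and was called in none of the comparisons among injected mice.

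The injected controls were also set against the uninjected mice. In GFP versus uninjected, *Apold1* fell and *Aplnr* rose among the 31 genes tested, against 1.82% lower and 0.662% higher (2.48% in all). In ctrl sh versus uninjected, *Apold1*, *Flt1* (log2FC -0.45, edgeR adjusted *P* = 0.0236) and *Cyyr1* (log2FC -0.35, adjusted *P* = 0.0458) fell and *Aplnr* rose, against 3.37% lower and 3.13% higher (6.49% in all). The call on *Cyyr1* was lost in all 6 fits without 1 library and that on *Flt1* in 3 of 6, as was that on *Apold1* with GFP. *Aplnr* alone also passed an absolute log2FC of 1 in each, against 1.41% and 2.39% of all genes. The levels of *Kdr* (log2FC -0.55, adjusted *P* = 0.0535) and *Plvap* (log2FC -0.36, adjusted *P* = 0.093) were lower in all GFP libraries than in all uninjected libraries but were not called. Both comparisons used the same uninjected libraries. The summed level of 10 RPE genes was 2860 to 8004 CPM in the uninjected mice, 902 to 1132 CPM with GFP and 2177 to 4164 CPM with ctrl sh, and its part in these differences was not tested.

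The hairpins differed between themselves. In *Lrp2* sh2 versus *Lrp2* sh1, 25 of the 32 genes were lower and 0 higher, against 12.3% lower and 10.2% higher (22.4% in all). At an unadjusted *P* under 0.05, 28 passed, all lower, but the share of all genes at that threshold was not counted. DESeq2 called 25 lower and 0 higher, against 16.5% of all genes called. The largest differences were in *Car4* (log2FC -1.60 ± 0.30, edgeR adjusted *P* = 0.00394), *Plvap* (log2FC -0.88 ± 0.05, adjusted *P* = 3.57e-06) and *Cldn5* (log2FC -0.80 ± 0.07, adjusted *P* = 5.7e-05), and *Car4* alone passed an absolute log2FC of 1, against 5.13% of all genes. The target itself, *Lrp2*, was at 29.7 to 42.8 CPM with sh1 and 34.6 to 43.9 CPM with sh2, against 87.7 to 167 CPM with ctrl sh, so that its levels overlapped between the 2 hairpins. *Lrp2* was at 25.3 to 38.1 CPM with nSREBP2 and 87.6 to 175 CPM with GFP. The hairpin preparations also differed in other cell types. The summed level of 10 RPE genes was 1798 to 2535 CPM with sh1 and 854 to 1173 CPM with sh2, and 6 of the 10 were lower with sh2. Of 12 rod genes 11 were higher with sh2, as were 8 of 10 macrophage genes and all 5 proliferation genes. The part of these differences in the endothelial result was not tested.

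The comparisons of nSREBP2 and *Lrp2* sh2 share no library. The 17 genes lower in both made up 89.5% of the 19 calls with nSREBP2 and 65.4% of the 26 calls with *Lrp2* sh2, which had itself called 26 of the 32 genes. *Cdh5*, *Cd34*, *Ptprb*, *Robo4*, *S1pr1*, *Ramp2*, *Erg*, *Sox17* and *Nos3* were called only with *Lrp2* sh2. A test of the difference between the 2 effects (edgeR, 12 libraries, chosen after seeing the data) called only *Ramp2*, with a difference of 0.50 ± 0.11 (adjusted *P* = 0.0201), and *Car4*, with 2.38 ± 0.42 (adjusted *P* = 0.00442), against a background of 6.39%. At an unadjusted *P* under 0.05, 9 genes passed, namely these, *Pecam1*, *Esam*, *Cd34*, *Robo4*, *S1pr1*, *Erg* and *Nos3*. The share of all genes at that unadjusted threshold was not counted, so no excess can be read from these 9.

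To ask whether the genes fell alike, the log2 level of each gene was set against the mean of the other 31 in the same library. *Plvap* fell further than the mean of the others, relative to which it differed by -0.63 with nSREBP2 and by -0.44 with *Lrp2* sh2, with no overlap between groups in either (exact permutation test, two-sided, *P* = 0.1 each, the smallest that 3 against 3 allows). *Cldn5* differed by -0.47 and -0.55, the latter further than *Plvap*, and with nSREBP2 *Flt1* differed by -0.55 and *Egfl7* by -0.48. Again there was no overlap, and no test was run on the ratios of *Cldn5*, *Flt1* and *Egfl7*. For *Kdr* the difference was -0.30 with nSREBP2 (exact *P* = 0.1) and -0.21 with *Lrp2* sh2 (exact *P* = 0.2, groups overlapping). *Car4* differed by 1.86 with nSREBP2 (exact *P* = 0.1) and by -0.09 with *Lrp2* sh2 (exact *P* = 0.5). *Pecam1* (0.45 and 0.25) and *Vwf* (0.33 and 0.26) were higher relative to the others in every nSREBP2 library than in every GFP library, and in every *Lrp2* sh2 library than in every ctrl sh library. The injected controls also differed from the uninjected mice in these ratios. *Plvap* differed by -0.30 with GFP and by -0.29 with ctrl sh, and *Kdr* by -0.51 and -0.31. *Flt1* differed by -0.38 and -0.44, while *Car4* differed the other way, by 1.02 and 1.39. None of these groups overlapped (exact permutation *P* = 0.1 each for *Plvap*, *Kdr* and *Car4*, with *Flt1* not tested). This design cannot reach *P* under 0.05 for such a ratio.

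**Figure D4:**
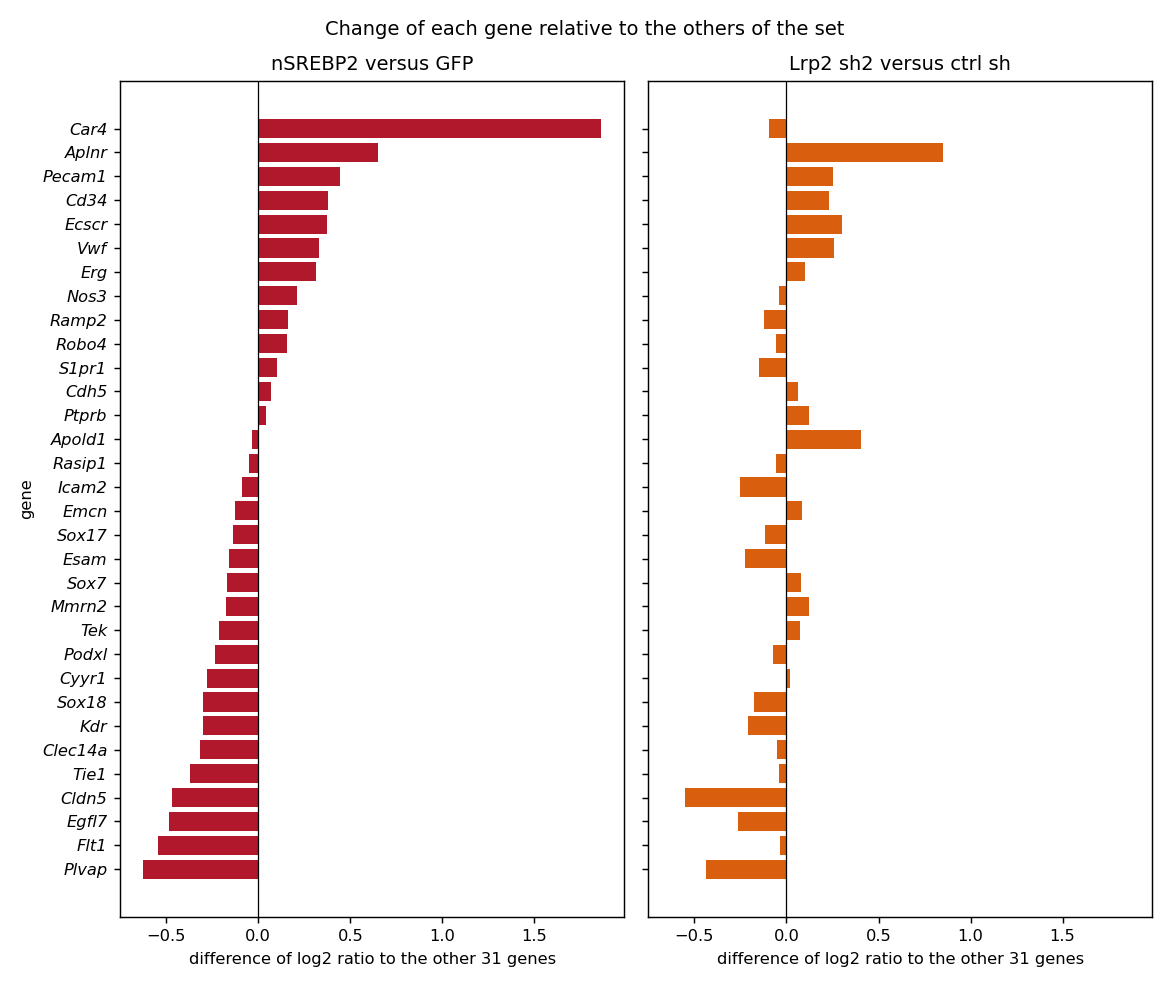
Change of each gene relative to the mean of the other 31 endothelial genes (treated minus control, log2 scale; bars are differences of group means of 3 libraries, and both panels keep the order of nSREBP2 versus GFP). *Plvap* lies at -0.63 and -0.44, *Pecam1* at 0.45 and 0.25, and *Car4* at 1.86 and -0.09.

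Across the 18 libraries, *Cldn5* (Pearson *r* = 0.956) and *Esam* (*r* = 0.949) followed the mean of the other 31 genes most closely, and *Aplnr* (*r* = -0.465), *Car4* (*r* = -0.314), *Cd34* (*r* = 0.261) and *Pecam1* (*r* = 0.469) least. Among 15005 genes outside the set, those most like its mean were *Afap1l1* (*r* = 0.957), *Trabd2b* (*r* = 0.951) and *Slc9a3r2* (*r* = 0.949), followed by *She*, *Adgrf5*, *Ppp1r16b*, *Acvrl1*, *Atp2a3*, *Tspan13* and *Scarf1*, all at 0.931 or above. These values describe 18 libraries that fall into 6 groups and share scaling, and they carry no test.

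Endothelial genes outside the set were examined in lists. Of 20 other general endothelial genes, 11 were lower with nSREBP2, 14 with *Lrp2* sh2 and 3 with *Lrp2* sh1, with none higher. The shares lower among all genes tested were 8.47%, 9.48% and 2.28%. The median log2FCs of the 20 genes were -0.34, -0.52 and -0.10. *Exoc3l2* (log2FC -1.20 with nSREBP2 and -1.05 with *Lrp2* sh2), *Nrp1*, a co-receptor for VEGF (-0.70 and -0.31), and the scaffold gene *Shank3* (-0.63 and -0.54) were among them. Of 10 further endothelial transcription factors, 2 fell with nSREBP2, 4 with *Lrp2* sh2 and 2 with *Lrp2* sh1, and their median log2FCs were -0.08, -0.37 and -0.11. *Gata2* fell by 0.88 with nSREBP2 and by 0.73 with *Lrp2* sh2 on the log2 scale.

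Genes of vessel types did not all fall. Among all genes tested, 8.47% were lower and 12.6% higher with nSREBP2, and 9.48% lower and 8.59% higher with *Lrp2* sh2. Of 7 barrier endothelium genes, 4 fell and 1 rose with nSREBP2 and 4 fell with *Lrp2* sh2. These included *Lef1*, a mediator of Wnt signaling (log2FC -1.97 and -0.98), and the transporter genes *Abcb1a* (-1.12 and -1.06) and *Slco1a4* (-0.91 and -1.28). Of 8 arterial genes, 4 fell and 1 rose with nSREBP2 and 3 fell with *Lrp2* sh2, with *Sema3g* at -0.81 and -0.94. Of 7 capillary genes, 1 fell and 2 rose with nSREBP2, and 3 fell with *Lrp2* sh2, with *Cd300lg* at -0.53 and -1.40. *Apln*, which encodes the ligand of APLNR, rose with nSREBP2 (log2FC 0.57) and fell with *Lrp2* sh2 (log2FC -0.66).

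The venous list was divided. With nSREBP2, *Selp*, which encodes P-selectin of activated and venous endothelium, was at 28.1 to 31.6 CPM against 8.43 to 11.1 CPM with GFP (log2FC 1.63 ± 0.13, edgeR adjusted *P* = 2.84e-05). With *Lrp2* sh2 it was at 17.2 to 37.5 CPM against 5.39 to 7.76 CPM with ctrl sh (log2FC 2.13 ± 0.27, adjusted *P* = 0.000862). *Lrg1* rose too, by a log2FC of 1.076 with nSREBP2 and 1.86 with *Lrp2* sh2, and neither gene was called with *Lrp2* sh1 (log2FC 0.30 and 0.08). *Nr2f2*, the transcription factor of venous identity, fell (log2FC -0.68 and -0.45). In all, 3 of 6 venous genes rose and 1 fell with nSREBP2, and 3 rose and 2 fell with *Lrp2* sh2. Of 4 lymphatic genes, *Prox1* rose (log2FC 1.34 and 1.17) and *Flt4*, which is also expressed by fenestrated capillaries, fell (-0.60 in both); 3 rose and 1 fell with nSREBP2, and 1 of each with *Lrp2* sh2.

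Ligands of these receptors were measured in the same RNA. *Vegfa*, whose product maintains the choriocapillaris, was at 118, 119 and 105 CPM with GFP and 103, 93.2 and 77.6 CPM with nSREBP2, groups that did not overlap but just missed the threshold (log2FC -0.32 ± 0.10, edgeR adjusted *P* = 0.051). It was at 188, 133 and 154 CPM with ctrl sh, 129, 125 and 114 CPM with *Lrp2* sh1 and 77.1, 85.0 and 92.8 CPM with *Lrp2* sh2. *Vegfa* fell with *Lrp2* sh2 (log2FC -0.88 ± 0.12, adjusted *P* = 0.00117), and with sh1 its log2FC was -0.36 (adjusted *P* = 0.0935). *Angpt1*, which encodes the activating ligand of TIE2, fell most with nSREBP2, to 62.9, 63.2 and 64.1 CPM from 161, 141 and 179 CPM with GFP (log2FC -1.34 ± 0.09, edgeR adjusted *P* = 1.41e-05). With *Lrp2* sh2 it was at 75.6, 98.6 and 105 CPM against 137, 174 and 158 CPM with ctrl sh (log2FC -0.74, adjusted *P* = 0.00426). In both comparisons no treated library reached its controls. *Pgf*, a ligand of FLT1, fell in all 3 comparisons of the study (log2FC -1.20 with nSREBP2, -0.53 with sh1 and -0.67 with sh2). *Angpt2* fell with nSREBP2 (-0.52) and *Lrp2* sh2 (-0.66). Of the 7 ligand genes examined, 3 fell with nSREBP2, 5 with *Lrp2* sh2 and 1 with *Lrp2* sh1, and none rose. The shares lower among all genes tested were 8.47%, 9.48% and 2.28%.

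**Figure D5:**
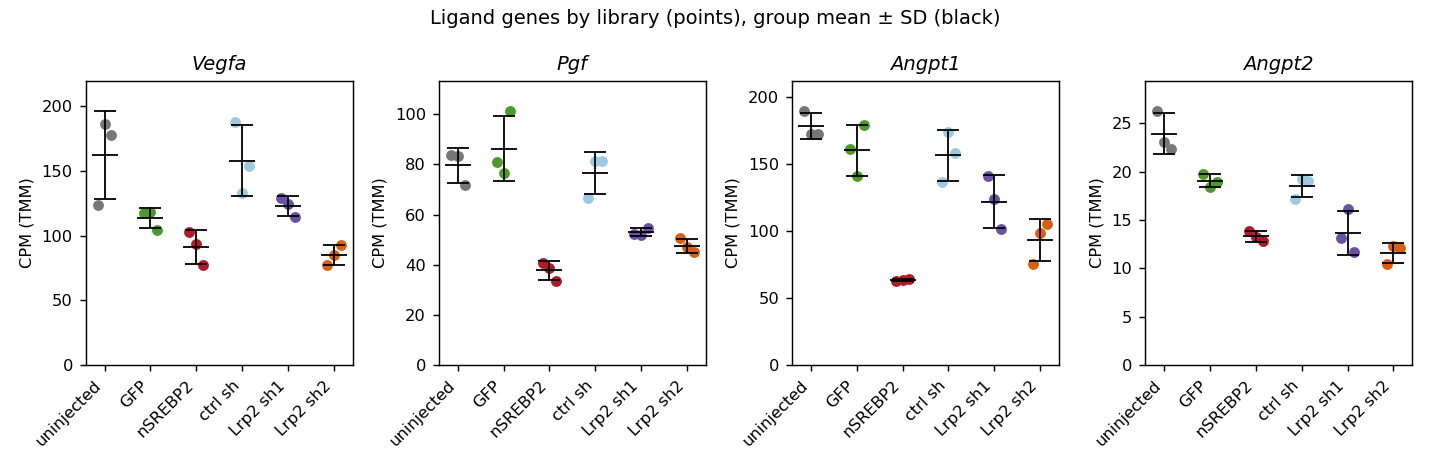
CPM (TMM) of 4 ligand genes in each library (coloured points, 3 mice per group), with group means and SDs in black. *Angpt1* and *Pgf* were lowest with nSREBP2, and *Vegfa* was lower in all *Lrp2* sh2 libraries than in all ctrl sh libraries.

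Other cell types in the preparations also moved, and their part in the endothelial results was not tested. Among all genes tested, 8.47% were lower and 12.6% higher with nSREBP2, and 9.48% lower and 8.59% higher with *Lrp2* sh2. The summed level of 8 fibroblast genes was 71310 to 86710 CPM with nSREBP2 against 34500 to 43850 CPM with GFP, and all 8 rose. It was 42570 to 50840 CPM with *Lrp2* sh2 against 33250 to 46920 CPM with ctrl sh, and 4 of 8 rose. Of 11 pericyte and smooth muscle genes, 4 fell with nSREBP2, and 5 fell and 1 rose with *Lrp2* sh2. Of 6 erythroid genes, all 6 fell with *Lrp2* sh2, while their median log2FC with nSREBP2 was -0.13. Macrophage genes rose with nSREBP2 (9 of 10; 709 to 767 CPM summed against 417 to 488 CPM), and 2 of 10 rose with *Lrp2* sh2. All 5 proliferation genes rose in both. The 10 RPE genes summed to 758 to 1088 CPM with nSREBP2 and 902 to 1132 CPM with GFP, but 854 to 1173 CPM with *Lrp2* sh2 and 2177 to 4164 CPM with ctrl sh, and none of these RPE genes was at 0 counts throughout. Rod genes summed to 258 to 364 CPM with nSREBP2 and to 40.7, 118 and 321 CPM with GFP. They summed to 83.2, 114 and 437 CPM with *Lrp2* sh2 and 44.2 to 65.8 CPM with ctrl sh.

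The sex of the mice was confounded with nSREBP2. Counts on Y-linked genes marked 6 male libraries, namely all 3 nSREBP2 libraries, uninjected replicate 3 and *Lrp2* sh2 replicates 2 and 3, so that sex and nSREBP2 cannot be told apart within nSREBP2 versus GFP. With sex as a term over all 18 libraries, 10 of the 32 genes were called with nSREBP2, all lower (*Cldn5*, *Podxl*, *Kdr*, *Flt1*, *Tie1*, *Tek*, *Clec14a*, *Plvap*, *Egfl7* and *Cyyr1*), against 11% of all genes. It called 19 with *Lrp2* sh2 and 13 in *Lrp2* sh2 versus *Lrp2* sh1, against 12.7% and 14.1%. With *Lrp2* sh2 the calls on *Cd34*, *Emcn*, *Ptprb*, *Erg*, *Sox7*, *Sox17* and *Mmrn2* were lost. Within 1 sex, a comparison chosen after seeing the data and given with no test, the summed level of the 32 genes was 4678 to 5036 CPM in the nSREBP2 males and 6038 CPM in the uninjected male. That male received no vector, so injection differed as well as nSREBP2. It was also the lowest uninjected library, the females being at 6915 and 6897 CPM. *Lrp2* sh2 replicate 1, a female, was at 4223 CPM, and the female ctrl sh and *Lrp2* sh1 libraries were at 5981 to 6236 and 5530 to 5959 CPM.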

How the data were processed

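RNA-seq libraries from RPE of 18 mice were grouped by the sample labels, and the hairpin labelled for LacZ was taken as ctrl sh. The authors depleted rRNA and mapped reads to GRCm38 with STAR 2.7.3a, and deposited raw counts of reads per gene, which are whole numbers. The annotation and strand setting are not given in the sources used here. Depth was 8921885 to 13696934 counts per library, and no replicates agreed within sampling noise.

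The 2 groups of a comparison were fitted by the quasi-likelihood test of edgeR 4.0.16 (R 4.3.3) after filterByExpr and TMM scaling, with *P*-values adjusted by Benjamini-Hochberg over all genes tested, and a gene was called at adjusted *P* under 0.05. The SE is the log2FC divided by the root of F. Ratios within the set were tested by exact permutation for *Plvap*, *Car4* and *Kdr* only. The code was tested on simulated data. DESeq2 1.42.0, other scalings and filters, all 18 libraries, a sex term, a replicate block and leaving out single libraries were alternatives. Same-numbered replicates did not deviate together (no comparison had a correlation above 0.1 in all pairs), so no pairing was assumed.

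The 32 genes and the 18 other lists were chosen with earlier results of these data known. Values per library are given for *Pecam1*, *Cdh5*, *Plvap*, *Kdr*, *Car4*, *Tie1*, *Cldn5* and *Vwf*, for the 3 called genes with the largest change per comparison and for those called against the majority. From the lists, up to 4 called genes with the smallest *P* in nSREBP2 versus GFP were eligible, plus *Vegfa*, *Pgf*, *Angpt1* and *Angpt2*. Schwann cell, skeletal muscle and sex gene lists were checked for composition. *P*-values cover the spread between 3 mice per group. Positions and overlaps came from GENCODE M21.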

Additional observations from a re-analysis of the deposited data

Results flagged for a closer look

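In *Lrp2* sh2 versus *Lrp2* sh1, 25 of the 32 endothelial genes were lower with sh2, in a direct test between the 2 hairpins against the same target, which drew attention because *Lrp2* itself was at overlapping levels in both (29.7 to 42.8 CPM with sh1 and 34.6 to 43.9 CPM with sh2). *Lrp2* sh1 called 3 of the 32 genes against ctrl sh and *Lrp2* sh2 called 26. The background of the direct test was 22.4% of all genes called, and with sex as a term it called 13 of the 32, against 14.1% of all genes. The 10 RPE genes summed to 1798 to 2535 CPM with sh1 and 854 to 1173 CPM with sh2, and the part of this difference was not tested.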

How the results depend on the processing

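The 79 calls on the 32 genes gave 1153 gene-by-setting results under the alternatives: 1023 kept direction and threshold, 129 lost the threshold and 1 reversed, namely *Cd34* with *Lrp2* sh2 against uninjected mice instead of ctrl sh (log2FC 0.032). With sex as a term over all 18 libraries, nSREBP2 versus GFP called 10 genes (against 11% of all genes) and *Lrp2* sh1 1 (3.69%). *Lrp2* sh2 versus sh1 called 13 (14.1%), ctrl sh versus uninjected 7 (12.4%) and GFP versus uninjected 6 (6.2%). An absolute log2FC above 1 left 1 call in each comparison and 0 with *Lrp2* sh1. All 18 libraries in 1 fit gave 1 call with *Lrp2* sh1 (against 3.63% of all genes), 5 in GFP versus uninjected (8.72%) and 8 in ctrl sh versus uninjected (14.5%). DESeq2 gave 5 in GFP versus uninjected (4.42%), and *Lrp2* sh1 against uninjected mice gave 14 (24.5%). With the replicate block, *Lrp2* sh1 kept 1 call (against 2.76% of all genes) and ctrl sh versus uninjected 2 (1.37%). In that setting nSREBP2 versus GFP had 19 (18%), *Lrp2* sh2 versus ctrl sh 26 (14.4%) and *Lrp2* sh2 versus sh1 25 (22.3%). GFP versus uninjected had 2 (2.13%) and the test over 6 groups 29 (45.9%). The cause of these shifts was not tested.

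Leaving out 1 library gave 13 (without nSREBP2 replicate 2) to 18 calls with nSREBP2. The share of all genes called ran from 13.4% to 22.2% in these fits, and such ranges follow in brackets. *Lrp2* sh1 had 0 to 3 calls (1.98% to 7.13%). The 0 arose without ctrl sh replicate 3, or without *Lrp2* sh1 replicate 2 or 3. *Lrp2* sh2 had 22 to 27 (10.8% to 14.6%), and *Lrp2* sh2 versus sh1 had 19 to 24 (14.1% to 20%). GFP versus uninjected had 1 to 5 (0.359% to 4.02%), with 5 without GFP replicate 3. For ctrl sh versus uninjected the counts were 1 to 3 (0.768% to 5.32%), and over 6 groups they were 28 to 31 (43.6% to 47.3%). *Car4* had 2 to 41 counts per library, the fewest of the 32 genes.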
